A study of Sus scrofa with 7 samples.

Results

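Matricellular proteins are secreted into the extracellular matrix, where most of them act less as structural fibres than as signals that bind cell-surface receptors, growth factors, proteases and collagen. In the adult heart many of them are made at low levels, are induced after infarction by fibroblasts and other stromal cells, and shape the scar and the surviving muscle. The genes described here are 10 members of this class and its close partners, listed by symbol: the thrombospondin family genes THBS1, THBS2, THBS4 and COMP, then POSTN, TNC, CCN2, FN1, CILP and CTHRC1. All 10 were found among the 20653 genes of the deposited table, each read from its transcript row of highest mean, and 9 of them had enough reads to be tested. COMP did not.

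RNA was sequenced from anteromidventricular myocardium of male farm pigs, sampled 14 weeks after an infarct of the left circumflex artery territory. Every animal had received an adeno-associated viral vector, AAV5, which delivered human S100A1, a cardiac calcium-sensor protein, in 4 pigs (labelled S100a1) and luciferase, a reporter enzyme, in 3 pigs (labelled hrLuc). The labels give no age, dose, promoter or uninfarcted animal, so both groups share the infarct and the vector, and no level here can be set against a healthy heart. The design asks what S100A1 delivery changed relative to the luciferase vector.

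With 1 row per gene the libraries held 28679324 to 38409552 reads, and 1 read was worth 0.824 to 1.14 normalized units. The pig S100A1 gene was at 7461, 6568 and 9125 normalized counts in hrLuc replicates 1 to 3 and at 5950, 6804, 6548 and 4429 in S100a1 replicates 1 to 4. The sources used here do not say whether transgene reads were counted with it, and the labels were therefore not checked by this gene. Cardiomyocyte genes were abundant in every library: the summed normalized count of TNNT2, MYH7, ACTN2, TNNI3 and MYBPC3 was 1388154 to 1646204 in hrLuc and 1471794 to 1621142 in S100a1. The labels give no batch. The library numbers were 33, 39 and 45 in hrLuc replicates 1 to 3 and 57, 9, 15 and 21 in S100a1 replicates 1 to 4. They do not alternate between the groups, so a batch of neighbouring numbers cannot be told apart from the vector. The number of S100a1 replicate 1, 57, lies beyond those of hrLuc and apart from the rest of its group.

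None of the 9 tested genes passed the threshold of 0.05 on the adjusted p of limma. Their adjusted p in limma ran from 0.530 to 0.903, and edgeR, limma-voom and DESeq2 on the recovered reads also called 0 of them. DESeq2 gave lower values for some, with an adjusted p of 0.188 for THBS2 and 0.296 for CILP. Among all 15661 genes tested, limma called 2, or 0.0128%. At an unadjusted p under 0.05 there were 4 members, THBS2, CILP, THBS4 and TNC, against 8.26% of all genes tested, and each of the 4 had a lower mean in S100a1. The authors' deposited table gives none of the 10 an adjusted p under 0.05, against 0.661% of its genes with an adjusted p. The authors' smallest adjusted p among the 10 was 0.154, for THBS2, followed by 0.255 for CILP. Fold changes are S100a1 over hrLuc on the log2(value + 0.5) scale, and 7 of the 9 were negative. Their median was -0.31, whereas 56.5% of all genes tested were negative, with a median of -0.02. Many of these genes share a cell source, and they were chosen with results of these data known, so the counts describe them and test nothing.

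**Figure D1:**
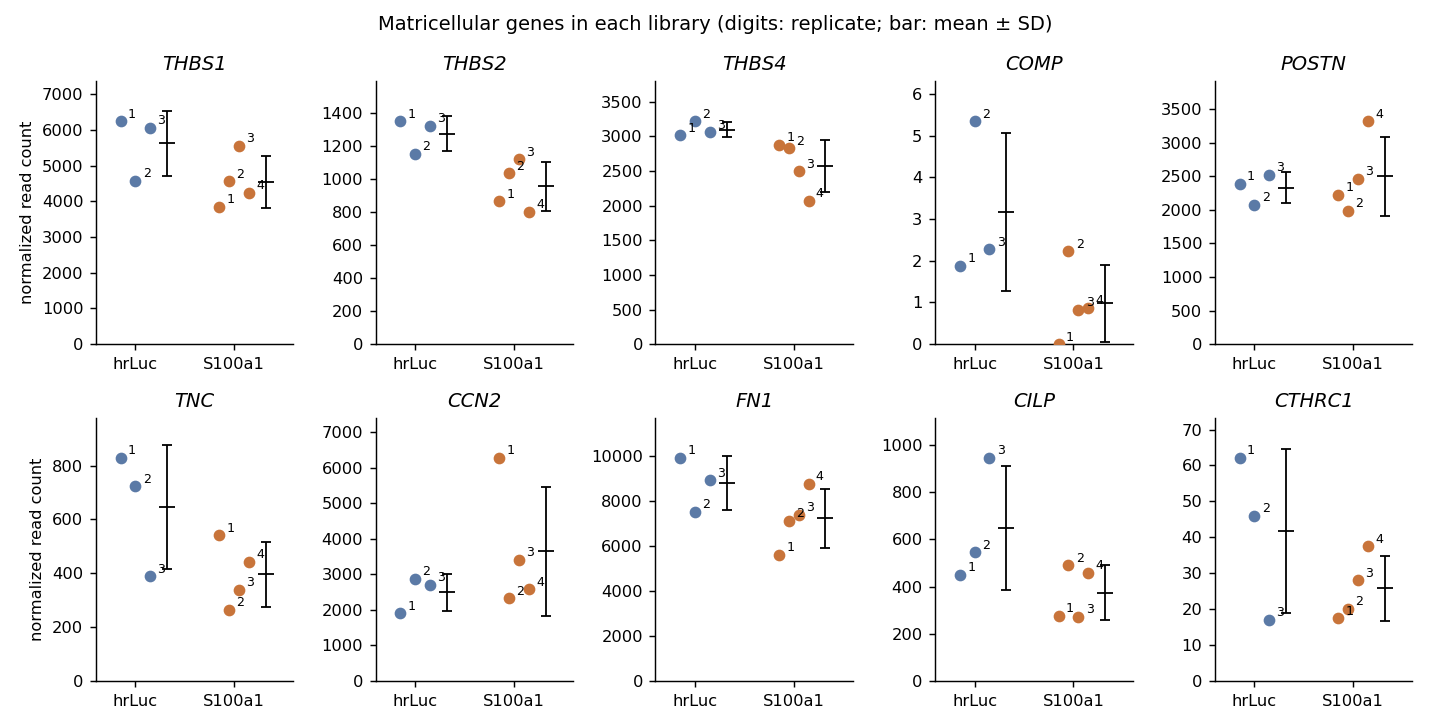
Normalized read count of each of the 10 genes in every library (y axis, from 0 in each panel) for the 3 hrLuc and 4 S100a1 libraries (x axis); digits give the replicate and the bar beside each group its mean and SD. The groups separate in THBS2 and THBS4 and overlap in the other 8 panels, and S100a1 replicate 1 stands alone at 6283 in CCN2.

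The thrombospondins are calcium-binding glycoproteins that bind matrix proteins and cell-surface receptors. THBS1, which activates latent TGF-beta and restrains angiogenesis, was at 6242, 4575 and 6059 normalized counts in hrLuc replicates 1 to 3, and at 3848, 4563, 5548 and 4232 in S100a1 replicates 1 to 4. Most S100a1 libraries lay below the hrLuc range, but replicate 3 of S100a1 lay above replicate 2 of hrLuc, so the groups overlapped. The hrLuc mean was 5625 ± 914 (SD, n = 3) and the S100a1 mean 4548 ± 728 (SD, n = 4), which gave a log2 fold change of -0.31 ± 0.14 (SE, as for all fold changes below; adjusted p = 0.613, limma).

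THBS2, an antiangiogenic thrombospondin that is needed for orderly collagen fibrils in mice, was at 1352, 1155 and 1324 normalized counts in hrLuc and at 867, 1037, 1122 and 801 in S100a1. Every S100a1 library was lower than every hrLuc library, although the gap between S100a1 replicate 3 and hrLuc replicate 2 was small. Its mean was 1277 ± 107 (SD, n = 3) in hrLuc against 957 ± 148 (SD, n = 4) in S100a1, a log2 difference of -0.43 ± 0.12 that had the smallest p of the 9 genes but did not pass the threshold (adjusted p = 0.530, limma). Its unadjusted 95% interval ran from -0.71 to -0.14, and 231 other genes had a smaller unadjusted p. The exact two-sided permutation test of its 7 values gave p = 0.0571, where 0.0286 is the smallest such a test of 3 against 4 can give.

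THBS4, a pentameric thrombospondin of muscle and tendon that rises in the overloaded heart of rodents, was at 3013, 3217 and 3058 normalized counts in hrLuc, a narrow range, and at 2876, 2828, 2497 and 2073 in S100a1. Here too the groups did not overlap, and S100a1 replicate 4 was the lowest. Between the groups the log2 fold change was -0.28 ± 0.11 (adjusted p = 0.574, limma; exact permutation p = 0.0857, two-sided), and without S100a1 replicate 4 it was -0.18. Groups that did not overlap, with S100a1 lower, were found in 5.31% of all genes tested and in 2 of these 9 genes. The THBS4 gene overlaps the uncharacterized locus LOC110259409 and a tRNA gene, so its count can hold reads of either.

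COMP, the thrombospondin of cartilage and tendon matrix, was close to absent in this muscle at this depth. It had 2, 5 and 2 reads in the hrLuc libraries and 0, 2, 1 and 1 in the S100a1 libraries, and the count of 0 allows up to 3 reads. It was below the filter of 10 normalized counts in 3 libraries and was not tested, and no fold is given. Of 5 cartilage and tendon markers, COL2A1 and TNMD were also under that filter, whereas ACAN, SOX9 and SCX were above it. The summed count of all 5 was 590 to 634 in hrLuc and 380 to 749 in S100a1. These reads are part of a bulk sample, in which fewer cells of a type and less RNA per cell cannot be told apart. This holds for every gene below.

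Periostin, encoded by POSTN, binds integrins and collagen, helps BMP1 to activate the crosslinking enzyme LOX, and in mice marks fibroblasts activated by infarction. Its normalized count was 2388, 2073 and 2520 in hrLuc and 2219, 1983, 2461 and 3318 in S100a1. The hrLuc range lay inside the S100a1 range, and S100a1 replicate 4 was the highest of the 7. Its log2 fold change was 0.08 ± 0.16 (adjusted p = 0.903, limma), with an unadjusted 95% interval of -0.29 to 0.44. Its sign rested on single libraries: it was -0.07 without S100a1 replicate 4 and -0.0028 without hrLuc replicate 2. Without S100a1 replicate 2 it was 0.18, without hrLuc replicate 3 it was 0.14 and without S100a1 replicate 1 it was 0.13. POSTN overlaps LOC102166397, so reads of that locus can be counted in it.

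Tenascin C, encoded by TNC, is a large adhesion-modulating glycoprotein that reappears at the border of healing infarcts. TNC was at 829, 724 and 389 normalized counts in hrLuc and at 542, 263, 339 and 442 in S100a1. Replicates 1 and 2 of hrLuc stood above the other 5 libraries, while replicate 3 of hrLuc fell within the S100a1 values. The difference of -0.69 ± 0.30 on the log2 scale (adjusted p = 0.598, limma) lay between -1.02, with hrLuc replicate 3 left out, and -0.47, with hrLuc replicate 1 left out. The 2 distinct transcript patterns among its 19 rows gave the same picture in the authors' deposited table, with a log2 fold change of -0.71 in both.

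CCN2, or connective tissue growth factor, is a secreted target of TGF-beta and of YAP and TEAD that promotes matrix production. It was one of the 2 genes with a higher mean in S100a1, and the size of the difference rested largely on one heart. Its normalized count was 1907, 2881 and 2702 in hrLuc and 2329, 3420 and 2577 in S100a1 replicates 2 to 4, ranges that overlap, but 6283 in S100a1 replicate 1. CCN2 differed by 0.46 ± 0.31 on the log2 scale (adjusted p = 0.697, limma), with an unadjusted 95% interval of -0.26 to 1.17. It was 0.16 without S100a1 replicate 1 and 0.27 without hrLuc replicate 1, the lowest library. The authors' deposited table gives 0.55 with an adjusted p of 0.769.

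FN1 encodes fibronectin, the glycoprotein of the provisional wound matrix on which collagen and the other members assemble. Its normalized count was 9921, 7518 and 8929 in hrLuc and 5616, 7130, 7390 and 8779 in S100a1. S100a1 replicates 1 to 3 were below all hrLuc libraries, and S100a1 replicate 4 was within their range. FN1 differed by -0.29 ± 0.15 on the log2 scale (adjusted p = 0.627, limma), and -0.18 without S100a1 replicate 1. That library had the lowest FN1 and the highest CCN2 of the 7, whereas hrLuc replicate 1 had the highest FN1 and the lowest CCN2. FN1 supplied 24.9% to 38.6% of the reads of the 10 genes, which together took 0.0707% to 0.0843% of the reads of an hrLuc library and 0.0640% to 0.0729% of an S100a1 library.

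CILP, a matrix protein that binds TGF-beta and is made in the heart by fibroblasts, had the largest negative fold change of the 9. Its normalized count was 450, 544 and 945 in hrLuc and 275, 490, 273 and 459 in S100a1. S100a1 replicates 2 and 4 were at the level of hrLuc replicate 1, and hrLuc replicate 3 was far above the other 6. The difference was -0.77 ± 0.30 on the log2 scale (adjusted p = 0.568, limma) and was -0.46 without hrLuc replicate 3. The second transcript row of CILP, at 91.5% of the mean of the first, had -0.82 in the authors' deposited table, against -0.79 for the first.

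CTHRC1, a secreted protein that marks collagen-making fibroblasts of the mouse infarct scar, had 15 to 66 reads in a library. Its normalized count was 62.1, 46.0 and 17.0 in hrLuc and 17.5, 20.0, 28.0 and 37.5 in S100a1. The hrLuc libraries held both the highest and the lowest value. The fold change was -0.56 ± 0.46 on the log2 scale (adjusted p = 0.745, limma). It was -1.10 when hrLuc replicate 3 was left out and -0.18 when hrLuc replicate 1 was, so no size can be given for it at this depth and number of hearts. Its spread within the groups was larger than that of 95.9% of all genes tested, and those of CCN2 (91.7%), TNC (90.6%) and CILP (90.2%) were also high, whereas THBS4 (53.0%) and THBS2 (58.6%) were near the middle.

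**Figure D2:**
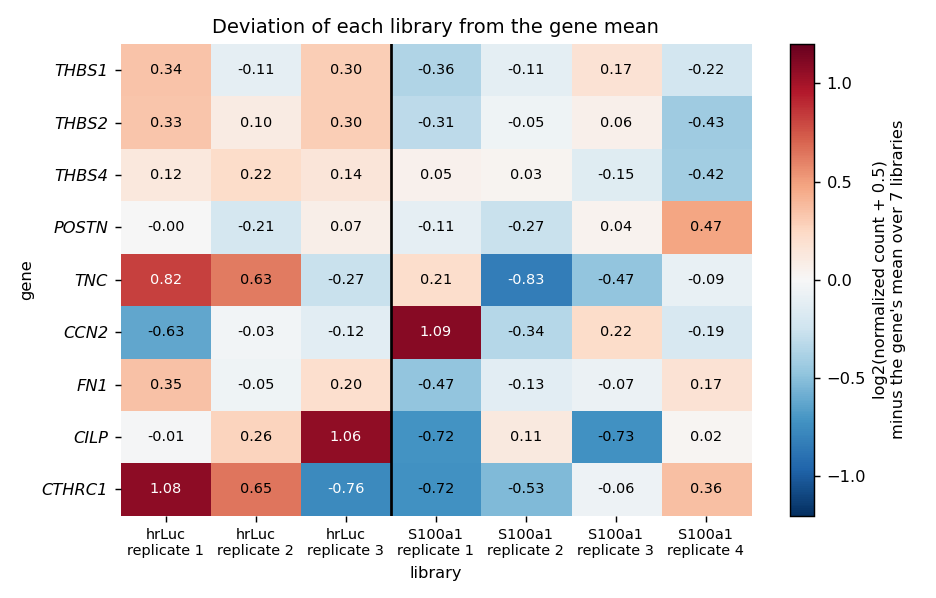
Deviation of each library (columns) from the gene's mean over the 7 libraries, on the log2(normalized count + 0.5) scale, for the 9 genes tested (rows); the vertical line separates hrLuc from S100a1. THBS1 and THBS2 both have their highest 2 values in hrLuc replicates 1 and 3, and the largest deviations are those of CCN2 in S100a1 replicate 1 (1.09), CTHRC1 in hrLuc replicate 1 (1.08) and CILP in hrLuc replicate 3 (1.06).

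The 10 genes did not share one order of the hearts. The highest library was hrLuc replicate 1 for 5 genes (THBS1, THBS2, TNC, FN1 and CTHRC1), hrLuc replicate 2 for 2 (THBS4 and COMP), hrLuc replicate 3 for CILP, S100a1 replicate 1 for CCN2 and S100a1 replicate 4 for POSTN. S100a1 replicate 1 was the lowest for 3 genes (THBS1, FN1 and COMP). S100a1 replicate 4 combined the highest POSTN with the lowest THBS2 and THBS4. Since normalized counts are not corrected for transcript length, levels are not ranked between genes.

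**Figure D3:**
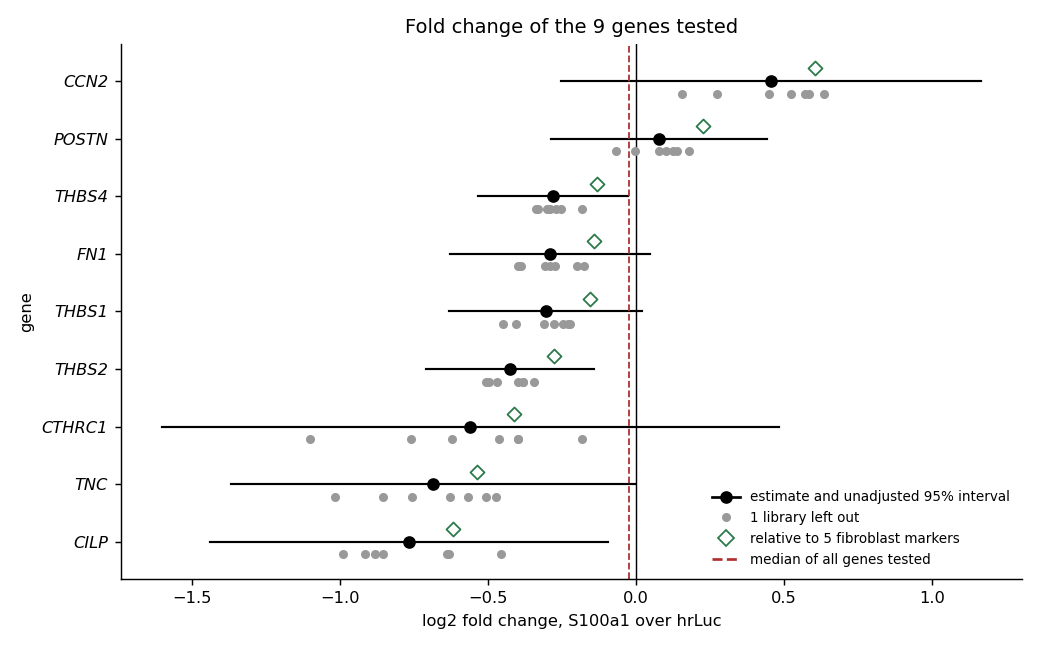
Log2 fold change of S100a1 over hrLuc (x axis) for the 9 genes tested (y axis): black points and lines are estimates with unadjusted 95% intervals, grey points leave out 1 library each, and green diamonds are relative to 5 fibroblast markers. The dashed line is the median of all genes, -0.02. Leaving out a library moves CTHRC1 from -1.10 to -0.18 and takes POSTN across 0, while THBS2 stays between -0.51 and -0.34.

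Because most of these genes are fibroblast products, they were read beside fibroblast markers. The 5 general markers (PDGFRA, DCN, LUM, TCF21 and DPT) were all negative, around a median of -0.13, and limma called 0 of them. Their summed count was 16734 to 20930 in hrLuc and 14201 to 18233 in S100a1. The lowest sum was that of S100a1 replicate 1 and the highest that of hrLuc replicate 1. LUM, a collagen-binding proteoglycan, had groups that did not overlap (-0.31, adjusted p = 0.568, limma). The markers of activated fibroblasts (FAP, MEOX1, RUNX1, ACTA2 and TAGLN) were also all negative, with a median of -0.27. They summed to 6945 to 9880 in hrLuc and 6089 to 7319 in S100a1. ACTA2 (-0.34) and TAGLN (-0.37) are smooth muscle genes as well, so this sum does not stand for fibroblasts alone. RUNX1 was at -0.27, MEOX1 at -0.24 and FAP at -0.06. With each library taken relative to the mean log2 of the 5 general markers, the median of the 9 genes was -0.16. This step moves the fold change of every gene up by the same amount. Which genes come nearer to 0 therefore follows from their sign and size before it, and is no result about single genes. On that scale CILP was at -0.62, TNC at -0.54, CTHRC1 at -0.41 and THBS2 at -0.28, and THBS1 (-0.16), FN1 (-0.14) and THBS4 (-0.13) were nearer to 0. POSTN (0.23) and CCN2 (0.60) were further above 0 than before. None of the 9 passed the threshold there either.

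Markers of other cell types were read by fold change and summed count only, without a fit relative to them. Of the platelet markers, a source of THBS1, PPBP had 1 read in hrLuc replicate 1 and none in the other libraries, and ITGA2B and GP9 had log2 fold changes of -0.17 and -0.02. The platelet list summed to 211 to 244 normalized counts in hrLuc and 212 to 231 in S100a1. Smooth muscle cells can make TNC, and 3 of their 4 markers were negative, with a median of -0.54 and 0 called. ACTG2 was at -0.92 (adjusted p = 0.608, limma), CNN1 at -0.60, MYH11 at -0.47 and SMTN at 0.06, and the groups overlapped in each. The smooth muscle markers summed to 9412 to 12200 in hrLuc and 8912 to 12077 in S100a1. SMTN, at 5663 to 6499 in hrLuc and 5721 to 6861 in S100a1, was the largest part of each sum, so the sums say little about the other markers. T cell markers were all negative (5 of 5, median -0.79, summed counts 311 to 646 in hrLuc and 222 to 363 in S100a1), with hrLuc replicate 1 the highest and S100a1 replicate 1 the lowest; in CD4 (-0.80) the groups did not overlap. Macrophage markers were split, with 3 of 6 negative and sums of 5812 to 8579 in hrLuc and 5191 to 8426 in S100a1. The part of these cell types in the values of the matricellular genes was not tested.

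The rest of the matricellular class gave the same count of calls. Of 17 further genes, TNN and CILP2 were under the filter and 15 were tested, of which 11 were negative and 0 were called, with a median of -0.13. The smallest p was that of SPARC, which binds collagen and governs its deposition (-0.36 ± 0.17, adjusted p = 0.608, limma). THBS3, the remaining thrombospondin, was next (-0.35 ± 0.21, adjusted p = 0.651, limma), with groups that overlapped. The 4 tested thrombospondin genes were thus all negative, as were 56.5% of all genes tested. CCN1, the closest relative of CCN2 and another YAP target, was at -0.27, opposite in sign to CCN2, and the groups overlapped in both. SPP1, or osteopontin, was at -0.64 on 18.1 to 76.8 normalized counts.

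Among collagens and collagen-processing enzymes that the members bind or help to activate, 8 of 8 were negative and 0 were called, with a median of -0.23. COL1A1, the main chain of type I collagen, had the smallest p (-0.44 ± 0.18, adjusted p = 0.576, limma), followed by COL5A1 (-0.25 ± 0.10, adjusted p = 0.578, limma). LOX and BMP1, the enzymes that act with periostin, were at -0.17 and -0.16. The summed count of this list was 133705 to 154216 in hrLuc and 86888 to 139629 in S100a1, with the lowest sum in S100a1 replicate 1, as for the fibroblast markers.

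**Figure D4:**
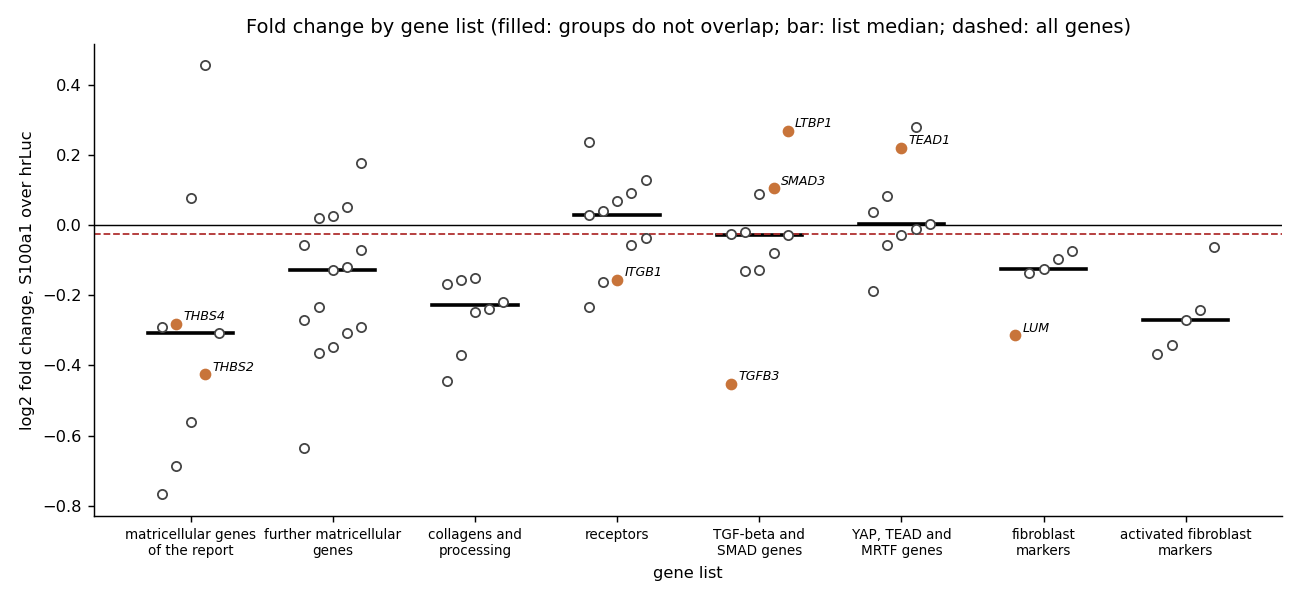
Log2 fold change of S100a1 over hrLuc (y axis) of each tested gene by list (x axis); filled points are genes whose groups do not overlap, bars are list medians and the dashed line is the median of all genes, -0.02. The 9 matricellular genes lie around -0.31 and the collagens around -0.23, whereas the medians of the receptors (0.03) and of the YAP, TEAD and MRTF genes (0.0039) are near 0, with genes on both sides.

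The receptors through which matricellular proteins act had fold changes in both directions. Of 11 integrin chains and other receptors, 5 were negative and 6 positive, with a median of 0.03 and 0 called by limma. The fold changes ran from -0.23 for ITGA8 to 0.24 for ITGB3, and the groups overlapped in both. ITGB1, the common beta chain of collagen and fibronectin receptors, was at -0.16 ± 0.07 (adjusted p = 0.615, limma) with groups that did not overlap, and LRP1, a scavenger receptor of THBS1 and CCN2, was at -0.16 ± 0.10. CD36 (0.07) and CD47 (-0.04), the receptors of THBS1, were close to 0.

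The genes that can govern transcription of the members were likewise not called. Of 10 TGF-beta and SMAD genes, 7 were negative, with a median of -0.03. LTBP1, which stores latent TGF-beta in the matrix, was at 0.27 ± 0.09 (adjusted p = 0.535, limma) and the ligand gene TGFB3 at -0.45 ± 0.15 (adjusted p = 0.541, limma). Groups were apart for 3 of these 10 genes: S100a1 was higher in LTBP1 and in SMAD3 (0.11), a signal transducer of TGF-beta, as in 3.96% of all genes tested, and lower in TGFB3. TGFB1 was at -0.13. Of 9 YAP, TEAD and MRTF genes, 4 were negative, with a median of 0.0039, and the smallest p were those of TEAD1, a DNA-binding partner of YAP, at 0.22 ± 0.08 (adjusted p = 0.541, limma, groups not overlapping), and MRTFB, a coactivator of SRF, at 0.28 ± 0.11 (adjusted p = 0.574, limma).

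The genes whose levels followed each member most closely over the 7 libraries were taken from 11757 tested genes (11758 for CTHRC1) with a mean of at least 100 normalized counts. Genes with only a LOC placeholder as symbol were left out. Pearson's r on the log2 scale is given as a description, because it is the highest of all those values, over 7 points that include both groups. For THBS1 they were FGD2, PLCB2 and IFITM1 (r = 0.982, 0.982 and 0.981). For THBS2 they were MAP3K12, TMEM250 and MAPK14 (0.973, 0.971 and 0.971), and for THBS4 ADAMTS17, GHDC and FAM107B (0.977, 0.959 and 0.947). For TNC they were SFMBT2, ADAMTS15 and BRD1 (0.987, 0.953 and 0.953), and for FN1 NFKB2, ACP2 and NR1H3 (0.991, 0.991 and 0.986). For POSTN they were SECTM1, MAML1 and VPS54 (0.986, 0.967 and 0.959), and for CCN2 CFAP54, BMS1 and WDR27 (0.987, 0.984 and 0.979). For CILP they were MRS2, RHOC and FAM20B (0.976, 0.963 and 0.958), and for CTHRC1 TLCD3A, FAM189B and ZFAND2A (0.984, 0.982 and 0.978). By rank the CILP genes followed less closely (Spearman's rho = 0.786, 0.821 and 0.821), and Pearson's r over so few points can rest on 1 extreme library.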

How the data were processed

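Per the labels' protocols, a Qiagen AllPrep kit gave total RNA and a TruSeq RiboZero kit, which removes ribosomal RNA, the libraries. Per the submitters' processing notes, the build was Sscrofa11.1, and R 4.1.2, FastQC 0.11.8 and DESeq2 1.33.1 are named without a role. An aligner, a counter and a strand setting are not named there. The deposited values are a signal, counts per transcript divided by a size factor per library: divided by the smallest value above 0 of their library, 100% came out whole to within 0.01, which recovered the reads. The deposited log2 and ratio columns are the authors' fold change, and the deposited p-value column is their adjusted p. All 63562 transcript rows matched RefSeq (Sscrofa11.1), where CCN2 stands as CTGF.

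One row per gene was kept, that of the highest mean. Genes that reached 10 normalized counts in 3 or more libraries were fitted with limma 3.58.1 (R 4.3.3, trend) on log2(value + 0.5), which understates changes of low genes. Tests were two-sided, adjusted by Benjamini-Hochberg over 15661 genes. edgeR 4.0.16, DESeq2 1.42.0 and limma-voom were run on the recovered reads. These tools and limma with trend were also run on simulated counts, but the other settings were not. Members and lists were chosen with earlier results of these data known. Named genes are the members, the called genes of each further list or, with none, its 2 of smallest p, the 3 closest genes of each member, and others named for a link to a member or separated groups, chosen after their values were seen.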

Additional observations from a re-analysis of the deposited data

How the results depend on the processing

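The count of 0 members past the threshold held in all 23 alternatives, a threshold of 0.10 included, and the fold changes of 8 of the 9 genes kept their sign in each setting that gave them a value (a filter of 50 gave none for CTHRC1). POSTN was at -0.068 with the replicate block, which in effect drops S100a1 replicate 4 because it has no partner, and ran from -0.068 to 0.18 with each library left out. The median over the members was -0.16 relative to fibroblast markers, an alternative added after seeing the data, and otherwise -0.41 to -0.22. Over all genes, limma called 2, but 0 with the replicate block, 1 with median centring, 4 relative to fibroblast markers and 0 to 3 with a library left out; limma-voom called 0 and DESeq2 89. The causes were not tested. Libraries with the same replicate number did not deviate together (r = -0.04, -0.02 and 0.03 for replicates 1 to 3). With 3 and 4 hearts, the unadjusted intervals do not mark the smallest change that could pass the threshold. THBS2, with an interval of -0.71 to -0.14, was not called, so larger changes than the intervals can also be missed. COMP and CTHRC1 are limited by read number.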

Other observations

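Markers of 3 other cell types of the ventricle were read in the same fit, and limma called 0 of them. The endothelial markers (PECAM1, VWF, CDH5, KDR and TIE1) had 5 of 5 negative fold changes around a median of -0.07, with sums of 22321 to 25414 normalized counts in hrLuc and 20826 to 23667 in S100a1. Of the adipocyte markers LEP was under the filter, and the tested 3 were at 0.30 (FABP4, groups not overlapping, adjusted p = 0.534, limma), 0.15 (ADIPOQ) and -0.0047 (PLIN1). FABP4 did not follow ADIPOQ and PLIN1. In S100a1 replicate 3 it was at 1072 normalized counts, whereas ADIPOQ (71.7) and PLIN1 (15.6) had their lowest values there. Of the mesothelial markers LRRN4 was under the filter, WT1 was at -0.37 and UPK3B at 0.33.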
